A study of Mus musculus with 3 samples.

Results

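The cells described here are 79 of 7898 kept cells of the fetal mouse kidney, grouped under the name early nephron cells. They held reads of a small gene program that includes the LIM homeobox gene Lhx1, which was detected in 40 of them. The name does not hold alike for all. Of the 33 cells with only 2 reads of the program, 28 held the progenitor gene Six2 and 2 held Wnt4, a gene of committing cells. A cell was kept if 1000 or more genes were seen and mitochondrial genes took no more than 10% of its reads. The 79 were chosen by measured values: the counts of Lhx1, Osr2, Emx2 and Cldn6 added up to at least 2 in the cell, Calb1 had none, and fewer than 3 of the immune genes C1qa, C1qb, C1qc, Tyrobp and Fcer1g were detected. They are called program cells below, and levels of the genes used to choose them are a description and not a result.

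All cells came from mouse embryos at E14.5 (embryonic age in days) that carry Six2GFP, a green fluorescent protein reporter of the gene Six2, which marks nephron progenitors. Kidneys from several litters were pooled into 3 tubes, so no cell can be traced to an embryo. Cells were sorted for the reporter, with dead cells (propidium iodide), debris and doublets gated out, and the 3 tubes went side by side through droplet sequencing, with all samples in 1 group and no treatment. Each tube is 1 library, named here 1, 2 or 3 by the suffix of its cell barcodes. The sort fixes which cells could be found: nephron cells that had already lost the reporter protein would not be collected.

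Every nephron starts when progenitors of the cap mesenchyme receive Wnt signals from the ureteric bud tip, make their own Wnt4, gather into a pretubular aggregate and turn into an epithelial ball, the renal vesicle. Lhx1 encodes a transcription factor that the vesicle and the S-shaped body need, Osr2 an odd-skipped zinc finger factor, Emx2 a homeobox factor of kidney epithelium and Cldn6 a tight junction protein of embryonic epithelia. Notch signalling, in which the ligand Jag1 takes part, patterns the vesicle into proximal and distal parts.

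The start regions of the genes that chose the cells are shown because the whole description rests on their transcripts. RefSeq (GRCm38.p6) gave the 250 bases before the transcription start for 3 of the 4 genes, Lhx1 at chr11:84525535-84525784 on the minus strand, Emx2 at chr19:59458440-59458689 on the plus strand and Cldn6 at chr17:23679115-23679364 on the plus strand. Capitals mark matches to TGGGAA, the core of sites bound by the Notch effector RBPJ, searched on both strands together with CTTTGA, the core of LEF1/TCF sites.
Lhx1: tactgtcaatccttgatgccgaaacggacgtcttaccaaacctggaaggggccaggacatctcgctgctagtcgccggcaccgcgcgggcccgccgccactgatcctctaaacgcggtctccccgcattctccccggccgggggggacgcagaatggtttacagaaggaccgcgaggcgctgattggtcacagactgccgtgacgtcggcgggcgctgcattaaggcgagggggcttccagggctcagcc
Emx2: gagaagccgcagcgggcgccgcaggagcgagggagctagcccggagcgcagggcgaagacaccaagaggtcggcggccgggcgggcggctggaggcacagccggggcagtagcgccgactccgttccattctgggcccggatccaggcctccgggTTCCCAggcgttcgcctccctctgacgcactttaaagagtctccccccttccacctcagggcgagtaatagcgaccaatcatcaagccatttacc
Cldn6: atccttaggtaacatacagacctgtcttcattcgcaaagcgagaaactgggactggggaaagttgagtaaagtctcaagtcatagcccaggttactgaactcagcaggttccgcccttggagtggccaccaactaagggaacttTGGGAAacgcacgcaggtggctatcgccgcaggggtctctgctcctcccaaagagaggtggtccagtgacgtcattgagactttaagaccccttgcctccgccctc
Emx2 held 1 match to TGGGAA, on the minus strand and read here as TTCCCA, with its first base at -95 from the start, and Cldn6 held 1 on the plus strand at -106. No letters of CTTTGA or TGGGAA were found in the Lhx1 window, nor CTTTGA in the other two. Over all 32851 RefSeq promoter windows of this length, 21.6% held TGGGAA and 13.8% held CTTTGA on either strand. The GC content was 64.8% for Lhx1, 67.2% for Emx2 and 53.6% for Cldn6, against a median of 52.4% over all windows. No assay of binding or chromatin belongs to these libraries, so the matches are letters only.

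Program cells took about the same share of each tube. They numbered 30 of 3024 kept cells in library 1 (0.992%, exact Clopper-Pearson 95% interval 0.67 to 1.41), 28 of 2760 in library 2 (1.01%, 0.675 to 1.46) and 21 of 2114 in library 3 (0.993%, 0.616 to 1.51), a mean of 1.0% ± 0.0126 (SD, n = 3). The intervals cover counting error only. The threshold was met by 83 kept cells, of which 4 held Calb1 and were left out, and none was immune. Program cells were sequenced more deeply than the rest: their median was 22032, 14022 and 23511 unique molecular identifiers (UMIs, counted transcripts) in libraries 1, 2 and 3, against 16382, 12158.5 and 16079.5 in Six2-positive cells with none of the 4 genes. When each cell was thinned to 5000 UMIs, 8, 10 and 6 cells met the rule, or 0.268%, 0.371% and 0.285%, with 42, 64 and 12 shallower cells left out. The share of 1% is therefore a share at this depth and not a census of the kidney. By the number of A and T bases in the barcode the share was 1.12% at 6 or fewer, 0.995% at 7 to 9 and 0.875% at 10 or more. Libraries shared 22 barcode sequences, 1 of them with a program cell.

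The 4 genes were rare in the sort and unevenly held by the program cells. Lhx1 was detected in 79 of the 7898 kept cells (1.0%), Osr2 in 114 (1.44%), Emx2 in 43 (0.544%) and Cldn6 in 126 (1.60%), and none of them in the 73 immune cells, where 0 allows a share of up to 4.11%. Among program cells, 40 held Lhx1 with 173 UMIs, 47 held Osr2 with 218, 28 held Cldn6 with 103 and 18 held Emx2 with 75. The most frequent combinations were Osr2 alone (18 cells), Lhx1 with Osr2 (14), Cldn6 alone (12) and Lhx1 alone (10). At least 2 of the genes were found in 38 cells, and all of them in 4. Some levels came from few cells: 1 cell of library 1 held 69 Osr2 UMIs, 52.7% of that library's program total, and 30 Cldn6 UMIs of library 1 (54.5%) lay in 1 cell as well. Of the 18 cells with Emx2, most also held Lhx1 (13 cells).

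**Figure D1:**
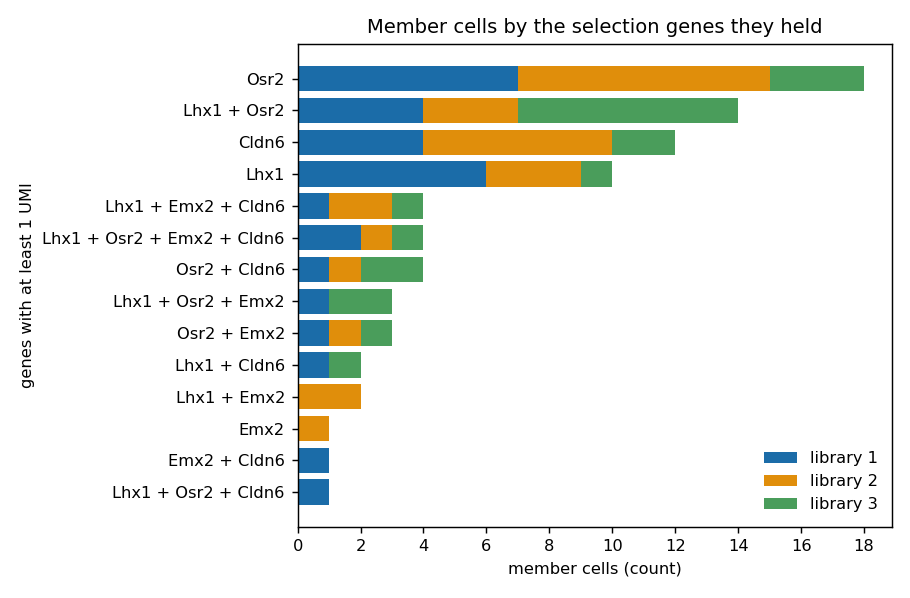
Number of program cells (members, x axis) for each combination of Lhx1, Osr2, Emx2 and Cldn6 held (y axis), with bars stacked by library. Osr2 alone (18 cells) and Lhx1 with Osr2 (14 cells) are the most frequent combinations, and every library holds both.

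Markers behind the name early nephron were higher in program cells than in progenitors, most of all in the cells with Lhx1. Six2, the progenitor factor, was still found in 51 of 79 (63.3%, 71.4% and 57.1% in libraries 1, 2 and 3), against 78.3%, 82.5% and 85.5% of cells with none of the 4 genes. At an equal depth of 5000 UMIs these shares were 36.7%, 56.0% and 28.6% against 42.0%, 55.6% and 48.7%, so library 2 showed no lower share in program cells. Immune cells, which should lack Six2, held it in 8.33%, in 0 of 25 cells (which allows a share of up to 12%) and in 4.17%, at median depths of 10279.5, 8139 and 9803.5 UMIs. Pax8, a nephron lineage factor, was found in 49 program cells, Wnt4 in 24 and Jag1 in 18. Summed over 11 further early nephron markers (among them Jag1, Dll1, Pou3f3, Irx1, Irx2, Bcat1, Papss2, Greb1, Cdh6 and Npy), program cells were at 163, 124 and 99.0 UMIs per 1000000 UMIs of the cell class (CPM) in the libraries in order, Six2-positive cells without the program at 7.23, 8.39 and 6.72, and Wnt4-positive cells without it at 19.9, 21.1 and 20.9.
The 40 cells with Lhx1 differed from the 39 without it. Six2 was found in 20 of the former and 31 of the latter, Cited1 in 14 and 24, Wnt4 in 18 and 6, Jag1 in 16 and 2, and Pax8 in 32 and 17. The same further markers summed to 243, 279 and 114 CPM with Lhx1 and to 25.9, 31.1 and 67.7 CPM without it. Markers of uncommitted progenitors (Six2, Cited1, Meox1, Eya1, Crym, Osr1, Traf1 and Rspo1) summed to 504, 952 and 650 CPM with Lhx1, 1433, 1688 and 874 without it, and 1279, 1889 and 1459 in Six2-positive cells. Markers of committing cells (Wnt4, Pax8, Tmem100, Ccnd1, Fgf8 and Bmper) summed to a mean of 1200.3 CPM with Lhx1, 488 without it, 248 in Six2-positive and 446 in Wnt4-positive cells. The Lhx1-zero cells thus also lay above the Six2-positive cells in both sums of nephron markers. For the committing sum they were at 241, 552 and 670 CPM against 230, 281 and 231, so the classes were nearly alike in library 1. Lhx1 is 1 of the 4 genes that chose the cells, and its detection goes with their sum: 18 of the 19 cells of sum 6 or more held Lhx1, against 22 of the 60 cells of sum 2 to 5.

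Several defining markers of the ureteric bud, podocytes and endothelium had 0 UMIs in program cells, but the ureteric and distal tubule sums were higher than in Six2-positive cells in each library. The ureteric bud genes Calb1 (by selection), Elf5, Ret, Wnt11 and Wnt9b had 0 UMIs in program cells, where 0 of 79 allows a share of up to 3.80%. The ureteric sum was 93.1, 109 and 73.2 CPM (4 of 9 markers detected), against 53.8, 72.9 and 57.5 in Six2-positive cells, and 83.5, 109 and 68.8 CPM of it was Hoxb7, a homeobox gene found in 61 program cells and in 3514 of 6146 Six2-positive cells. Only 5 program cells held a ureteric marker other than Hoxb7. Of the podocyte markers, Nphs1, Podxl and Synpo had 0 UMIs and 2 of 6 were detected, with a sum of 30.1, 82.6 and 17.2 CPM against 25.7, 39.3 and 26.8. Of the endothelial ones, Cdh5, Emcn, Esam and Tek had 0 UMIs (3 of 7 detected, 0 to 4.30 CPM). Stromal markers (9 of 10 detected) were at 54.8, 148 and 133 CPM against 100, 132 and 109. Proximal tubule markers stood out in library 1 alone, at 104, 4.86 and 2.15 CPM against 4.44, 3.67 and 3.78. All UMIs of Fxyd2, a subunit of the sodium pump of tubules, were in 1 cell of that library. Distal tubule markers were at 32.9, 4.86 and 10.8 CPM against 2.05, 2.68 and 2.27, with Sim2, Slc12a1 and Slc12a3 at 0. Ribosomal genes took 25.0%, 14.0% and 20.5% of UMIs in program cells and 26.2%, 14.4% and 22.5% in Six2-positive cells, and mitochondrial genes 3.30%, 3.90% and 3.12% against 3.30%, 3.42% and 3.27%. Doublet scores among the highest 6% of a library were found in 3 program cells. The part of these values in the results below was not tested, other than by leaving cells out.

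Levels of several genes outside the rule moved with the sum of the 4 genes. The threshold lies between cells of sum 1 (218 cells) and of sum 2 (33 cells), and a further 27 cells had a sum of 3 to 5 and 19 a sum of 6 or more. Ccnd1, which encodes cyclin D1, was at a mean over libraries of 124 CPM in Six2-positive cells of sum 0, 153 at sum 1, 203 at sum 2, 372 at 3 to 5 and 907 at 6 or more. For Pax8 these means were 31.3, 47.9, 89.7, 163 and 354 CPM in the same order. The progenitor co-regulator Cited1 went the other way, from 175 through 152, 127 and 89.6 to 12 CPM.
For Ccnd1, Pax8 and Cited1 the mean at sum 2 lay closer to that at sum 1 than to that at 6 or more. Jag1 was at 0.639, 1.02, 10.6, 14.3 and 83.5 CPM, and Wnt4 at 5.24, 12.7, 5.36, 59.1 and 160 CPM. Six2 itself was at 165 CPM at sum 0, where its detection chose the cells, then at 124, 154, 75.6 and 20.6. Among the 19 cells of sum 6 or more, Pax8 was found in 18, Wnt4 in 14, Jag1 in 13 and Six2 in 6, whereas the 33 cells of sum 2 held them in 11, 2, 2 and 28 cells. The cell of highest sum (109, library 1) held 61041 UMIs, with 44 of Wnt4, 24 of Pax8 and 7 of Jag1. These values are a description, since the sum chose the cells.

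**Figure D2:**
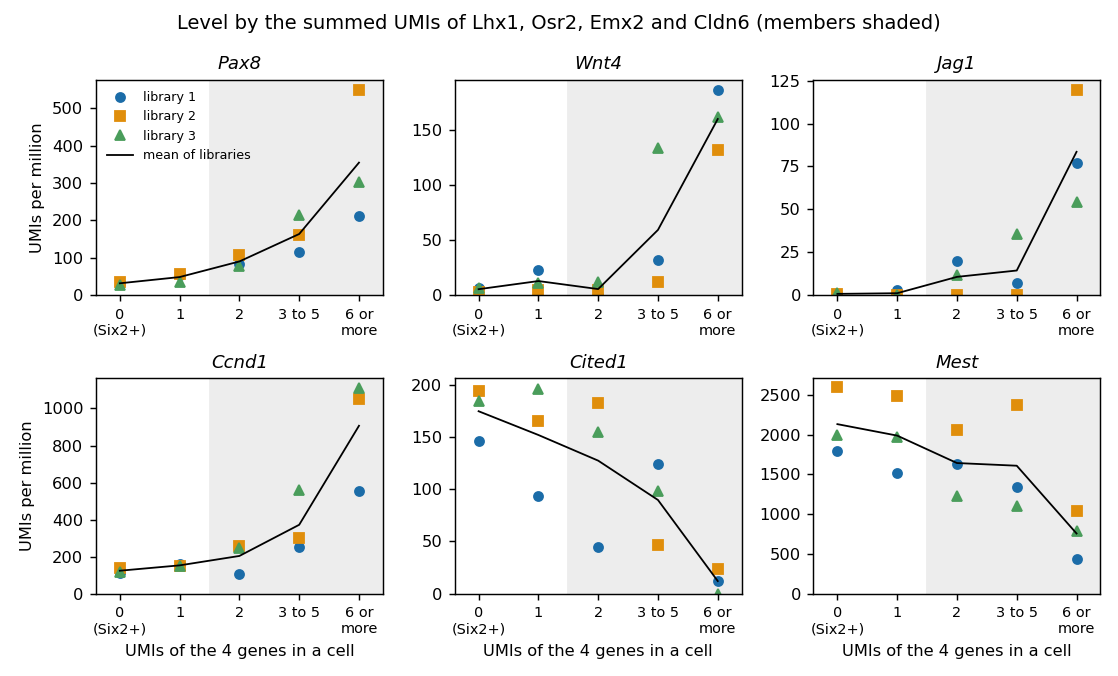
Level of 6 genes (CPM, one point per library, line at the mean) in cells grouped by the summed UMIs of Lhx1, Osr2, Emx2 and Cldn6, with the program cells shaded. Pax8 and Ccnd1 climb along the groups to means of 354 and 907 CPM, Wnt4 and Jag1 are highest in the last group, and Cited1 and Mest are lowest there.

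What else distinguishes program cells from progenitors was asked by comparing them with the 6146 Six2-positive cells in which none of the 4 genes was seen (2260, 2160 and 1726 per library). Program cells were higher in regulators of the renal vesicle (Pax8, Ccnd1, Wnt4, Bmp2, Jag1), in 7 of 25 Notch pathway genes and in some genes of epithelial junctions and basement membrane, and lower in 12 of 27 progenitor regulators, Cited1 among them, and in several mesenchymal and growth genes. For each library, UMIs of a class were added up and these sums entered edgeR's quasi-likelihood test, with the library as a block and Benjamini-Hochberg adjustment, called at 0.05. Of 12353 genes tested, 322 were higher in program cells (2.61% of those tested) and 208 lower (1.68%), and the median log2 difference over all genes was -0.04. With DESeq2, which scales the sums by its own size factors, the calls were 254 higher and 68 lower of 13591 genes tested. A p-value measures only the spread between these 3 tubes, which may be technical. The Six2-positive cells hold Six2 by selection, while program cells need not. Genes with few UMIs could pass the filter on low counts through the program sums. Crb3, Jag1, Dkk1, Cldn5, Lhx1os, Clec18a and Cxcl14 were too low in Six2-positive cells to pass otherwise. For them only an increase could be called, and the list counts that hold them share this limit.

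Of 30 tested renal vesicle regulators, 15 were higher and 1 lower, with a median log2 difference of 0.55 (0.70 with a gene at 0 UMIs in 1 class set to its bound), against -0.04 over all genes. Pax8 (ENSMUSG00000026976, GRCm38 chromosome 2, 24420560 to 24475599), which nephron induction needs together with its paralog Pax2, was at 138, 209 and 200 CPM in program cells and 31.7, 35.5 and 26.6 in Six2-positive cells, and rose by 2.48 ± 0.13 (log2 difference ± SE, adjusted p = 6.93e-24). Ccnd1 (ENSMUSG00000070348, chromosome 7, 144929931 to 144939925), a driver of entry into the cell cycle, was at 315, 428 and 667 CPM against 113, 140 and 118, higher by 1.85 ± 0.10. Every program library lay above every Six2-positive one for both genes.
Wnt4, the ligand by which induced mesenchyme becomes epithelial, was at 75.3, 31.6 and 101 CPM against 6.75, 3.07 and 5.91, a log2 difference of 3.65 ± 0.26, with 38.3% of its program UMIs in 1 cell. Bmp2 (ENSMUSG00000027358, chromosome 2, 133552159 to 133562885), a bone morphogenetic protein, was at 32.9, 82.6 and 94.7 CPM against 2.99, 3.91 and 2.10 and was detected in 28 program cells (4.43 ± 0.33). Again no library of one class overlapped the other.
Members of the list that did not pass included Wt1, a factor that progenitors and podocytes share, at 260, 399 and 329 CPM against 309, 423 and 329. Foxc2, another factor of both, was at 112, 180 and 129 CPM against 115, 166 and 118. Not every regulator of early nephrons was thus higher in program cells.

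**Figure D3:**
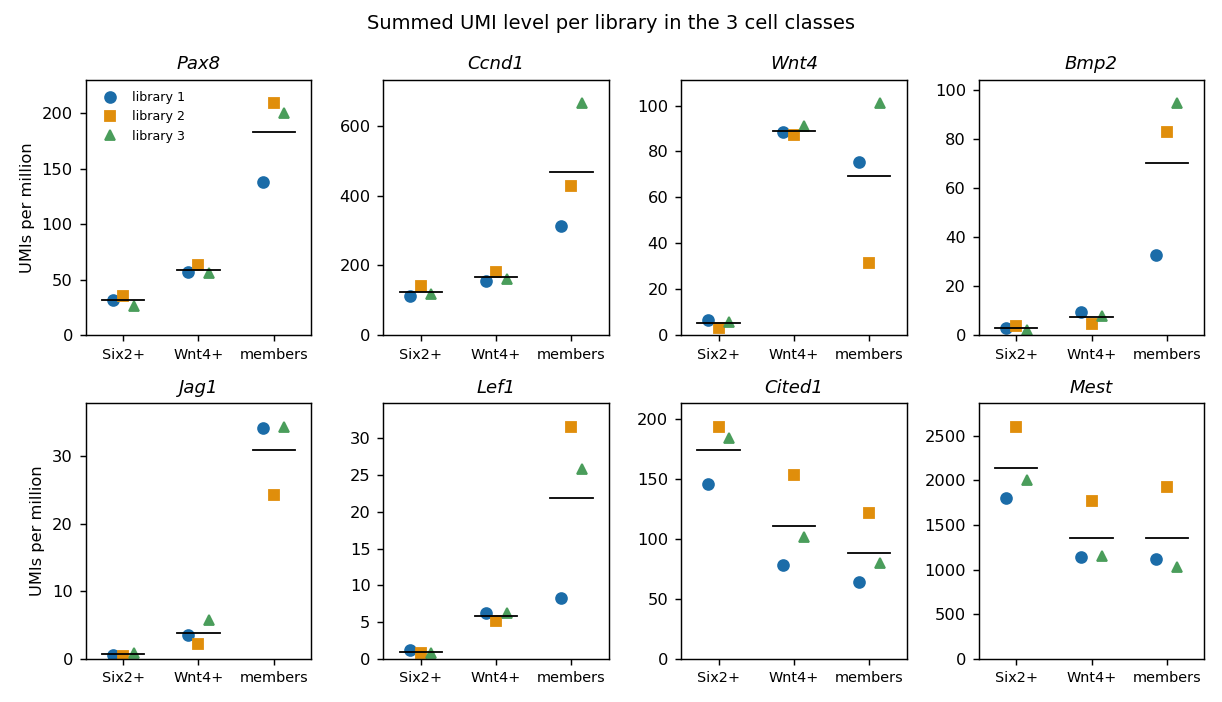
Levels of 8 genes (CPM, one point per library, line at the mean) in Six2-positive cells and Wnt4-positive cells without the 4 genes and in program cells. In all 3 libraries Pax8, Ccnd1, Bmp2, Jag1 and Lef1 are highest in program cells, while Cited1 and Mest are lower there than in Six2-positive cells. Wnt4 in Wnt4-positive cells is high by selection.

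Of 25 tested genes of the Notch pathway, 7 were higher, among them a ligand, a receptor and targets. The other 18 were not called, none was lower and the median was 0.09. The ligand Jag1 (ENSMUSG00000027276, chromosome 2, 137081456 to 137116644) was at 34.2, 24.3 and 34.4 CPM against 0.558, 0.458 and 0.902, a log2 difference of 5.58 ± 0.50, and 18 cells held it. Notch1, a receptor, was at 26.0, 14.6 and 17.2 CPM against 2.51, 3.21 and 2.57 (2.82 ± 0.44). Hey1, a transcriptional target, was at 80.8, 80.2 and 116 CPM against 26.0, 42.6 and 24.7 (1.58 ± 0.17).
The feedback inhibitor Nrarp was at 58.9, 24.3 and 10.8 CPM against 1.29, 1.73 and 0.835 (4.53 ± 0.49). All 12 program cells with Nrarp also held Lhx1, and 1 cell held 48.3% of its UMIs. Lfng, a glycosyltransferase that tunes Notch receptors, and the target Heyl passed with differences of 1.16 ± 0.23 and 0.89 ± 0.18. Lfng had adjusted p values of 0.17 without library 1 and 0.065 without library 2, and Heyl 0.11 without library 1.

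Wnt and BMP genes changed in both directions. Of 30 Wnt pathway genes and targets, 8 were higher and 3 lower (median 0.41). Sfrp2, a secreted frizzled-related protein, was at 138, 270 and 308 CPM against 41.0, 53.0 and 44.6 (2.27 ± 0.13), and Lef1, which carries beta-catenin to its target genes, at 8.21, 31.6 and 25.8 CPM against 1.19, 0.846 and 0.802 (4.34 ± 0.55). Dkk1, a secreted Wnt inhibitor, was at 13.7, 53.5 and 6.45 CPM against 0.457, 0.564 and 0.367 (5.42 ± 0.60), in 7 cells of which 1 held 57.1% of its UMIs.
Rspo3, a secreted amplifier of Wnt signals, was lower, at 84.9, 129 and 53.8 CPM against 156, 190 and 172, and fell by 1.0 ± 0.13 on the log2 scale. Among 25 BMP and TGF-beta genes, 8 were higher and 1 lower, with a median of -0.06 (0.10 with a gene at 0 in 1 class at its bound, so that the sign of the median depends on it). Besides Bmp2, the BMP target Id1 was at 183, 214 and 207 CPM against 72.5, 91.3 and 89.0 (1.23 ± 0.11), and the pseudoreceptor Bambi and the ligand Bmp4 were higher by 1.93 ± 0.26 and 1.22 ± 0.21. Id2, another target, was at 335, 362 and 387 CPM against 247, 251 and 274 and was higher by 0.45 ± 0.08, but by 0.11 with an adjusted p of 0.72 against comparison cells of like depth. Tgfbi, a matrix protein induced by TGF-beta, fell by 0.93 ± 0.10. In the FGF and ERK list, 2 of 21 genes were higher (Spry1, by 0.89 ± 0.17, and Fgf8, by 0.58 ± 0.17) and 1 lower, at a median of -0.00. The lower one was Fgf20, a ligand that maintains progenitors (-1.58 ± 0.34). Leaving out library 1 or 2 gave Fgf20 an adjusted p of 0.086 or 0.11, and leaving out library 2 or 3 gave Fgf8 0.36 or 0.5.

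Of 32 tested epithelial junction and polarity genes, 8 were higher and none lower (median 0.60). Crb3 (ENSMUSG00000044279, chromosome 17, 57059105 to 57065918), a part of the apical polarity complex, was at 19.2, 19.4 and 12.9 CPM against 0.127, 0.176 and 0.100, a log2 difference of 6.91 ± 0.71, in 12 cells. It passed the filter on low counts through the program sums alone. Epcam, an epithelial adhesion molecule, was at 35.6, 26.7 and 32.3 CPM against 7.51, 10.1 and 9.32 (1.84 ± 0.29), and Spint2, a protease inhibitor of epithelia, at 65.7, 82.6 and 83.9 CPM against 26.0, 34.4 and 43.4 (1.15 ± 0.16). The tight junction gene Cldn7 (4.29 ± 0.53) was found in 8 cells and the desmosome gene Dsp (5.14 ± 1.21) in 5.
Basement membrane and integrin genes counted 10 higher and 1 lower of 26, at a median of 0.51. The laminin chain gene Lamc1 was at 49.3, 63.2 and 60.2 CPM against 15.8, 19.8 and 15.5 (1.71 ± 0.21). Lama4 and Lamb1, further laminin chains, were higher by 3.10 ± 0.44 and 1.35 ± 0.24. Itga6, an integrin that binds laminins, differed by 1.35 ± 0.31 but had an adjusted p of 0.87 without library 1. Frem1, a matrix gene of early kidney mesenchyme, was lower (-1.05 ± 0.22).
Of 28 listed podocyte and tubule segment genes 8 were tested, and 3 of these were higher (median 0.08). Wfdc2, a secreted protein of epithelia, was at 152, 75.3 and 185 CPM against 29.2, 15.4 and 28.5 (2.44 ± 0.14). Cldn5 (ENSMUSG00000041378, chromosome 16, 18776847 to 18778262), a claudin known from endothelium and podocytes, was at 27.4, 107 and 28 CPM against 0.431, 0.494 and 3.71 (5.42 ± 0.51), in 17 cells. In program cells 3 of 7 endothelial and 2 of 6 podocyte markers were detected, with Cdh5, Emcn, Esam, Tek and Nphs1 among those at 0. The podocyte sum was highest in library 2 (82.6 CPM against 39.3), as was Cldn5. Whether Cldn5 goes with either cell type was not tested. Fxyd2, the other higher gene of this list, rested on 1 cell as above.

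Other genes named by rule had low levels in progenitors too, and Lhx1os, Clec18a and Cxcl14 passed the filter through the program sums alone. Lhx1os (ENSMUSG00000087211, chromosome 11, 84525660 to 84535831) is a noncoding gene that starts beside Lhx1 and runs away from it on the opposite strand, and was at 46.5, 9.72 and 49.5 CPM against 0.203, 0.0353 and 0.0668 (8.24 ± 0.63). It was found in 21 program cells, 18 of them with Lhx1. Its annotated span does not overlap that of Lhx1, but it is the direct neighbour of a gene that chose the cells. No source says whether counting used strand, so reads of Lhx1os may not be told apart from those of Lhx1. Clec18a (ENSMUSG00000033633, chromosome 8, 111058920 to 111092426), a lectin gene, was at 43.8, 75.3 and 43.0 CPM against 0.101, 0.282 and 0.267 (7.92 ± 0.52) in 16 cells. The chemokine Cxcl14 was at 26.0, 12.2 and 34.4 CPM against 0.254, 0.423 and 0.535 (5.89 ± 0.57). Trim16, Plet1, Grb7 and Car4 were also among the largest increases, with differences of 5.44 ± 0.60, 5.35 ± 0.55, 5.23 ± 0.53 and 4.87 ± 0.43. Grb7 encodes an adaptor of receptor tyrosine kinases and Car4 a carbonic anhydrase of the cell surface.

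Of 27 progenitor regulators 12 fell and 1 rose, with a median of -0.44 (-0.43 with the gene at 0 in 1 class at its bound). Cited1 (ENSMUSG00000051159, chromosome X, 102247381 to 102252181) was at 64.3, 122 and 79.6 CPM in program cells and 146, 194 and 184 in Six2-positive cells, and fell by 1.05 ± 0.13 (adjusted p = 2.65e-09). Osr1, a factor of the kidney mesenchyme, was at 138, 265 and 94.7 CPM against 227, 348 and 237 and fell by 0.77 ± 0.11. The guidance receptor gene Robo2, the crystallin gene Crym and the hedgehog co-receptor gene Gas1 fell by 0.69 ± 0.09, 0.71 ± 0.10 and 0.43 ± 0.07.
Summed over all program cells, levels thus stayed well above 0 for each of these genes. Of the 19 program cells of sum 6 or more, however, only 5 held Cited1. When only the 51 program cells that held Six2 were compared, 3 genes of this list were lower and none higher, in a fit of fewer cells. Over all 12212 genes of that fit 41 were lower and 88 higher. Mesenchymal genes counted 5 lower and none higher of 19 (median -0.06), among them the cadherin gene Cdh11 (-0.78 ± 0.11), Meis2 (-0.56 ± 0.08) and Zeb1 (-1.11 ± 0.20). Sparc and Tnc passed too, but Sparc had an adjusted p of 0.31 without library 1 and Tnc 0.16, 0.11 and 0.14 without library 1, 2 or 3.

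Growth genes of fetal progenitors split into 7 lower and 3 higher of 20 (median -0.07). The imprinted gene Mest (ENSMUSG00000051855, chromosome 6, 30723547 to 30748465) was at 1118, 1923 and 1028 CPM against 1800, 2602 and 2000 and fell by 0.72 ± 0.06. Cdkn1c, an imprinted inhibitor of cyclin-dependent kinases, was at 917, 1590 and 742 CPM against 1521, 2124 and 1647 and fell by 0.78 ± 0.07. In contrast, the imprinted noncoding gene H19 was at 691, 1031 and 914 CPM against 469, 566 and 492 (higher by 0.73 ± 0.07) and Mycn, a driver of growth, at 105, 136 and 151 CPM against 51.0, 74.2 and 57.8 (1.07 ± 0.13).
Imprinted genes therefore changed in both directions. Peg3 and Grb10 fell by 0.78 ± 0.09 and 0.53 ± 0.09. Of 24 guidance genes, 1 was higher (Sema5a) and 3 lower, Robo2 among them (median 0.15).

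Of the genes of mitosis many were higher in program cells, but none against Six2-positive cells of like depth. Of 53 tested genes of G2 and M phase 23 were higher and none lower, with a median of 0.58, led by Hmgb2 (0.49 ± 0.06), Ube2c (0.76 ± 0.10) and Tubb4b (0.60 ± 0.09). Against the 395 Six2-positive cells nearest to program cells in total UMIs, 5 for each within its library, none of 53 was higher and 1 was lower. Over all 8849 genes of that fit 157 were higher and 72 lower. In the S phase list 3 of 43 were higher and none lower (median 0.04), and among G1 cyclins and inhibitors 2 of 15 were higher, Ccnd1 and Cdk6, and 1, Cdkn1c, lower (median -0.05, or 0.01 with a gene at 0 in 1 class at its bound). Immediate early genes, which respond to stimulation and to dissociation, counted 9 lower and none higher of 25 (median -0.43). Fos was at 209, 897 and 278 CPM against 520, 1090 and 698 and fell by 0.92 ± 0.10. Hspa1a, a heat shock gene, passed on 2 program cells.

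The genes with the largest decreases by rule had low levels. Pcdh8, a protocadherin gene, was at 9.58, 58.3 and 32.3 CPM against 47.1, 92.1 and 67.2 and fell by 1.21 ± 0.21. Actn3, Scx, Btbd11 and Egr4 had differences of -1.76 ± 0.35, -1.58 ± 0.30, -1.38 ± 0.30 and -1.33 ± 0.27, and Scx encodes a transcription factor of tendon. Bend4, Nrtn, Slc40a1, Cdc42ep3, Lix1l and Zfp467 completed these, and each lost its call without at least 1 of the libraries.

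**Figure D4:**
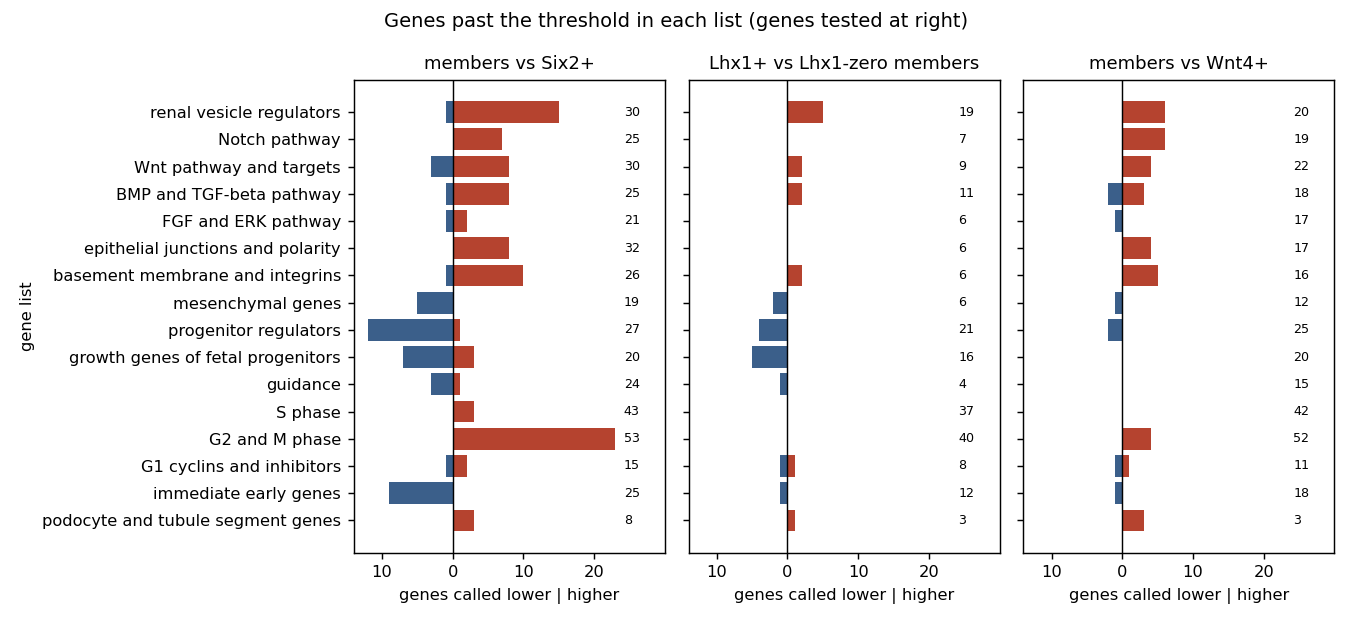
Genes of each list called higher (right) and lower (left) in program cells (members) against Six2-positive cells, in Lhx1-positive against Lhx1-zero program cells, and in program cells against Wnt4-positive cells, with the number tested at the right. Renal vesicle and basement membrane genes lean higher and progenitor regulators lower in each panel. Epithelial genes lean higher except between Lhx1-positive and Lhx1-zero cells, where none of 6 was called. Immediate early genes lean lower against Six2-positive cells, with 1 lower call in each of the other panels. The bars of G2 and M phase are long only against Six2-positive cells.

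The number of calls depended on the cells of high sum and on single libraries. It was 204 of 12442 genes tested without library 1 and 337 of 12501 without library 3, against 530 of 12353 with all. With the depth-matched comparison cells 229 of 8849 genes tested were called, 157 higher and 72 lower. Among them renal vesicle regulators gave 9 higher of 23, Notch genes 7 of 20, epithelial genes 5 of 21 and basement membrane genes 9 of 18. Lower were 8 of 26 progenitor regulators and 3 of 19 immediate early genes. Without the program cell of highest sum in each library the calls numbered 354 of 12321. With the program cells of sum 2 to 5 only (33 and 27 cells), 96 of 12236 genes were called, 66 higher and 30 lower. The higher calls held 8 renal vesicle regulators, 2 Notch, 2 basement membrane and no epithelial genes. Leaving out every program cell with any ureteric marker, Hoxb7 included, left 18 cells and gave 10 calls of 12135 genes tested. Leaving out only the 5 cells with another ureteric marker gave 410 of 12318.

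Whether the program goes beyond that of cells with Wnt4, the nearest earlier stage, was asked by comparing program cells with 387 Wnt4-positive cells in which none of the 4 genes was seen (190, 94 and 103 per library). Program cells were higher in Pax8, Ccnd1, Bmp2 and Jag1, in the Notch receptor and target genes and in laminins, and lower in the BMP target Id2. Their depth was similar, with median UMIs of 22032, 14022 and 23511 against 19759, 14088 and 19545. Of 8171 genes tested, 94 were higher in program cells (1.15%) and 26 lower (0.318%), with a median of 0.01 over all genes, and DESeq2 called 44 higher and 3 lower. Without library 1 the calls numbered 77 of 8043. Program cells enter this comparison as they do the first, so the results of the comparisons are not independent. Among the genes whose levels in Wnt4-positive cells are given below, some were too low there to pass the filter through those cells. They were Bmp2, Jag1, Notch1, Nrarp, Lfng, Crb3, Epcam, Cldn5, Lama4 and Prss23. For these genes only an increase could be called, and the list counts that hold them share this limit.

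Pax8 was at 57.1, 63.2 and 55.5 CPM in Wnt4-positive cells, and program cells, at the levels given above, were higher by 1.59 ± 0.14. Ccnd1 was at 157, 180 and 162 CPM there (higher by 1.44 ± 0.12 in program cells), Bmp2 at 9.48, 4.36 and 7.99 (2.95 ± 0.30) and Jag1 at 3.49, 2.18 and 5.77 (3.02 ± 0.36). Of 20 tested renal vesicle regulators 6 were higher and none lower (median 0.25). Kdm2b, a histone demethylase gene, was also called, with an adjusted p of 0.18 without library 3. Wnt4-positive cells thus sat between Six2-positive and program cells in these genes, as the levels by class show.
Cited1 was at 78.1, 153 and 102 CPM in Wnt4-positive cells against 64.3, 122 and 79.6 in program cells, with no call (adjusted p = 0.476). Of 25 progenitor regulators 2 were lower and none higher (median -0.19), and no growth gene of 20 passed.

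Notch genes counted 6 higher of 19 and none lower (median 0.17). Notch1 was at 1.99, 2.90 and 0.888 CPM in Wnt4-positive cells (3.45 ± 0.47 higher in program cells), and Lfng at 45.2, 80.2 and 15.1 CPM in program cells against a mean of 9.77 ± 4.61 (SD, n = 3) (2.21 ± 0.27). Nrarp was at 2.24, 0 and 0.888 CPM (4.67 ± 0.44). Hey1 and Heyl were higher by 1.19 ± 0.18 and 1.20 ± 0.19. A ligand, a receptor, its modifier and targets were thus called higher. For Jag1, Notch1, Lfng and Nrarp only an increase could be called, and the 6 higher genes include them.
Of 22 Wnt genes 4 were higher (Sfrp2, Bambi, Lgr4 and Fzd7; median -0.02). Sfrp2 was at 63.6, 77.0 and 59.5 CPM in Wnt4-positive cells (1.75 ± 0.15). In the BMP and TGF-beta list, 3 of 18 were higher (Bmp2, Bmp4 and Bambi) and 2 lower (Id2 and Bmper), at a median of 0.03. Id2, which BMP signals induce, was at 335, 362 and 387 CPM in program cells and 536, 638 and 719 in Wnt4-positive cells and fell by 0.79 ± 0.08 (adjusted p = 4.60e-08). The ligands Bmp2 and Bmp4 and the target Id2 thus differed in opposite directions here, whereas all 3 were called higher against Six2-positive cells. The Id2 call against Six2-positive cells was lost with comparison cells of like depth, as given above. For Bmp2 only an increase could be called here. Of 17 FGF and ERK genes, Fgf20 was the 1 lower, and its call was lost without single libraries.

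Crb3 had 0 UMIs in Wnt4-positive cells and 28 in program cells, which makes it at least 44.4-fold higher against a floor of 3 counts over the class. Epcam was at 5.74, 10.2 and 3.99 CPM there (2.38 ± 0.34), and with Spint2 (1.69 ± 0.19) and Ezr (0.61) these were the 4 higher of 17 epithelial genes, none being lower (median 0.30). Basement membrane genes counted 5 higher of 16 and none lower (median 0.74), with Lama4 at 1.5, 2.18 and 3.55 CPM (3.29 ± 0.43) and Lamc1 at 19, 26.9 and 24.4 (1.31 ± 0.20).
Cldn5 stood at 3 UMIs in the Wnt4-positive cells against 77 in program cells, a ratio of 122 with a counting interval of 40.2 to 605. Of 28 listed podocyte and tubule segment genes only 3 passed the filter, and all were called higher (median 1.35). Among them Wfdc2 was higher by 1.35 ± 0.14, and Cldn5 passed only through the program sums. So few tested genes say nothing about the list as a whole. The other genes named by rule were Lhx1os, Cxcl14, Clec18a, Prss23, Car4 and Atp1b1. Prss23, a serine protease gene, was at 26.0, 24.3 and 40.9 CPM against 0.997, 0.726 and 0.888 (4.92 ± 0.46). Atp1b1, a sodium pump subunit, had 54.7% of its program UMIs in 1 cell. Lhfp, a membrane protein gene, was lower, at 21.9, 31.6 and 32.3 CPM against 61.1, 72.6 and 69.7 (-1.27 ± 0.20), as were Snap91 and Plpp3 (-1.20 ± 0.24 and -1.15 ± 0.22).
In G2 and M phase 4 of 52 genes were higher and none lower (median 0.26), with none of 42 in S phase. Ccnd1 was higher and Ccnd2 lower among G1 genes (2 of 11 called, median -0.04): Ccnd2 was at 245, 394 and 426 CPM against 482, 533 and 486, with an adjusted p of 0.38 without library 1. The remaining lists gave Cdh11 lower among 12 mesenchymal genes, Fos lower among 18 immediate early genes and no guidance gene of 15.

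Whether program cells chosen through Lhx1 carry other genes than those chosen without it was asked by comparing the 40 Lhx1-positive (16, 11 and 13 per library) with the 39 Lhx1-zero program cells (14, 17 and 8). Lhx1-positive cells were higher in renal vesicle regulators (Ccnd1, Kdm2b, Pax8, Bmp2, Wnt4) and lower in Cited1, Six2, Osr1 and 5 of 16 growth genes. Several of these calls were lost without library 1, as given below. With only the 22 Lhx1-positive and 38 Lhx1-zero cells of sum 2 to 5, a fit of fewer cells, edgeR called 0 of 3101 genes, with 109 at an unadjusted p under 0.05. Ccnd1 then differed by 0.72 (adjusted p = 0.71) and Cited1 by -1.0 (adjusted p = 0.77). The split thus cannot be told apart from the gradient with the sum described above. They were also deeper, with median UMIs of 27424, 14485 and 24487 against 18244, 13559 and 16208.5. Of 4195 genes tested, 26 were higher with Lhx1 (0.62%) and 36 lower (0.858%), with a median of -0.01 over all genes. Without library 1 there were 30 calls of 3698 genes tested, and DESeq2 called 2 of 13576 genes higher and none lower. The split by detection is made in few cells, and a cell without an Lhx1 UMI may still express the gene. Clec18a, Prss23, Lamc1 and Dag1 passed the filter on low counts through the Lhx1-positive sums alone. For these genes only an increase could be called, and the higher basement membrane genes given below are Lamc1 and Dag1.

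Ccnd1 was at 419, 693 and 861 CPM with Lhx1 and 137, 268 and 251 without it, a log2 difference of 1.55 ± 0.15 (adjusted p = 2.89e-08). Kdm2b (ENSMUSG00000029475, chromosome 5, 122870665 to 122989823) was at 185, 291 and 293 CPM against 44.4, 97.3 and 102 (1.68 ± 0.22), Pax8 at 200, 311 and 249 against 33.3, 148 and 94.8 (1.53 ± 0.24) and Bmp2 at 49.9, 155 and 126 against 3.70, 38.9 and 27.1 (2.26 ± 0.37). Wnt4 overlapped between the classes, at 115, 71.3 and 101 CPM against 7.41, 7.78 and 102, and its call (1.63 ± 0.43, adjusted p = 0.0486) was lost without library 1 (adjusted p = 0.72). These were the 5 higher of 19 tested renal vesicle regulators, and none was lower (median 0.14).
Emid1 (ENSMUSG00000034164, chromosome 11, 5106265 to 5152257), a matrix protein gene, was at 180, 279 and 240 CPM against 14.8, 62.2 and 40.6 (2.59 ± 0.27), and Clec18a at 69.5, 175 and 56.8 against 0, 15.6 and 13.5 (3.49 ± 0.50). Sfrp2 was at 159, 402 and 407 CPM against 104, 191 and 94.8 (1.18 ± 0.21), and Wfdc2 at 208, 97.2 and 243 against 55.6, 62.2 and 60.9 (1.58 ± 0.26). Prss23 (2.57 ± 0.65), Rab3ip, Lamc1, Dag1 and Clu completed the increases by rule, of which Rab3ip, Lamc1 and Clu had adjusted p values of 0.21, 0.22 and 0.24 without library 1 and Dag1 0.3 without library 2. Jag1 fell below the filter on low counts and has no test here.
By list, 2 of 9 Wnt genes (Sfrp2 and Wnt4), 2 of 11 BMP and TGF-beta genes (Bmp2 and Id1) and 2 of 6 basement membrane genes (Lamc1 and Dag1) were higher. Of 28 listed podocyte and tubule segment genes 3 were tested, and 1 (Wfdc2) was higher. The medians were 0.05, 0.62, 0.63 and 1.04 in this order, and no gene of these lists was lower. Id1 was at 254, 188 and 265 CPM against 63.0, 230 and 81.3, so library 2 went the other way. Its call (edgeR adjusted p = 0.0486) was lost without library 1 or 3 (adjusted p of 0.58 and 0.068). No gene passed among 7 Notch, 6 FGF and ERK, 6 epithelial, 37 S phase and 40 G2 and M phase genes.

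Cited1 was at 28.2, 77.7 and 28.4 CPM with Lhx1 and 126, 148 and 190 without it, and fell by 1.96 ± 0.30 (adjusted p = 0.000118). Six2, which plays no part in choosing program cells, was at 32.6, 84.2 and 69.4 CPM against 141, 156 and 102, a difference of -1.26 ± 0.28 (adjusted p = 0.0119) that was lost without library 1 (adjusted p = 0.5). Osr1 (-1.28 ± 0.25) had an adjusted p of 0.42 without library 1. With Robo2 and Crym, Cited1 and Osr1 were the 4 lower of 21 progenitor regulators, none being higher (median -0.38). Robo2 and Crym had adjusted p values of 0.051 and 0.65 without library 1.
Mest was at 688, 1470 and 940 CPM against 1852, 2194 and 1219 and fell by 0.85 ± 0.12, and Cdkn1c fell by 0.94 ± 0.13. Peg3, Myc and Grb10 were lower as well, making 5 of 16 growth genes (median -0.21). These 3 calls were lost without library 1 (adjusted p of 0.43, 0.15 and 0.55), and that of Myc also without library 3 (0.093). The imprinted genes H19, Igf2 and Meg3 were not called, at differences of 0.11, 0.55 and 0.57. Ckb, a creatine kinase gene, was at 30.4, 51.8 and 66.2 CPM against 115, 144 and 129 (-1.46 ± 0.28, adjusted p = 0.065 without library 1), and Spock2, a proteoglycan gene, at 63.0, 58.3 and 53.6 CPM against 159, 175 and 102 (-1.31 ± 0.25). Bcl2l11, Clmp and Cped1, the other decreases by rule, had adjusted p values of 0.6, 0.051 and 0.49 without library 1. Meis2 and Sparc were lower among 6 mesenchymal genes, Robo2 among 4 guidance genes and Egr1 among 12 immediate early genes, while Ccnd1 rose and Cdkn1c fell among 8 G1 genes. Meis2 had an adjusted p of 0.086 without library 1 and Egr1 of 0.074 without library 3. Without the program cell of highest sum in each library 21 of 4218 genes were called, and without the library block none.

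**Figure D5:**
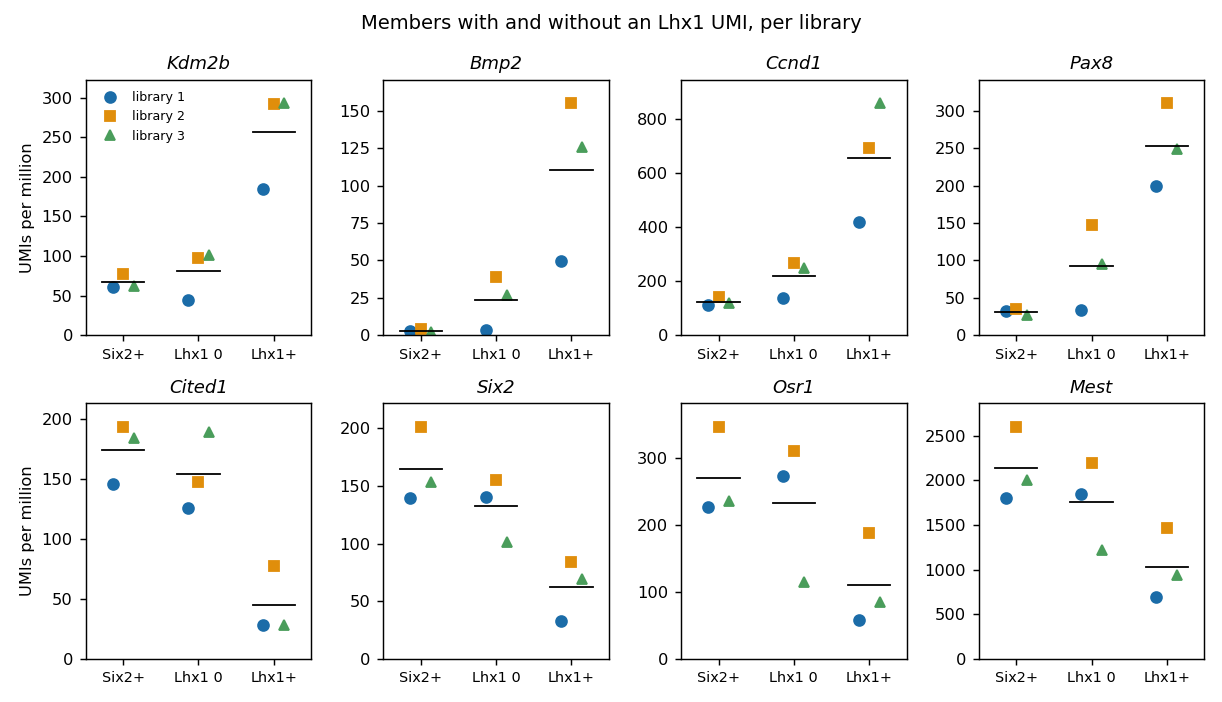
Levels of 8 genes (CPM, one point per library, line at the mean) in Six2-positive cells and in program cells without and with an Lhx1 UMI. Kdm2b, Bmp2, Ccnd1 and Pax8 are highest with Lhx1 in each library, while Cited1, Six2, Osr1 and Mest are lowest with Lhx1, and in Six2-positive cells Six2 is high by selection.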

How the data were processed

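The authors deposited UMI counts per gene and cell, with no normalization. The submitters' processing notes name Cell Ranger 1.3.1 and the build mm10. The matrix joins the 3 libraries and marks each by a barcode suffix (per the file headers), and the sources used here do not tie suffixes to sample labels. Libraries held 50894264, 35268524 and 35816105 UMIs in kept cells, 7898 of 7924 barcodes. Program cells held 730525, 411439 and 464795 of these. Depth limits detection: with 0 of 79 cells, a share of up to 3.80% is allowed.

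UMIs were summed per library and class. Sums were tested with edgeR 4.0.16 in R 4.3.3 (TMM, filterByExpr, quasi-likelihood test, two-sided, library as a block because both sums come from 1 tube, Benjamini-Hochberg over all genes tested, threshold 0.05). SE is the log2 difference over the square root of F. DESeq2 1.42.0 was an alternative. Genes of the rule, and Six2 or Wnt4 where they chose the comparison cells, were not counted. Genes named by rule passed, moved alike in 3 of 3 libraries, had a mean of at least 20 CPM in the higher class and were the 12 largest in each direction (8 in the other comparisons). In lists with over 15 measured genes up to 6 of smallest p were named. A few genes that these rules or lists hold are not reported here by name. Doublets were not removed, and leaving out the highest 6% of Scrublet scores (scanpy 1.11.5) per library was an alternative. The scripts were tested on simulated counts. Members and lists were chosen with earlier results of these data known. Gene coordinates are those of the GENCODE annotation of GRCm38, promoters those of RefSeq.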

Additional observations from a re-analysis of the deposited data

How the results depend on the processing

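Limits come from few cells: 79 program cells in 3 tubes, 1606759 UMIs, and gene sums that 1 deep cell can carry. Both sums of a comparison come from 1 tube, so the library block is a pairing by origin. Without the replicate block the calls were 124, 0 and 30 against Six2-positive cells, between Lhx1-positive and Lhx1-zero cells and against Wnt4-positive cells, compared with 530, 62 and 120 with it (edgeR). For the 0 calls, 236 genes had an unadjusted p under 0.05, and DESeq2 called 2. DESeq2 gave 322, 2 and 47 calls of 13591, 13576 and 13287 genes tested. Leaving out 1 library gave 204 to 550, 30 to 89 and 77 to 154.

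The number of genes tested differed between settings and is given with the calls. Against Six2-positive cells (530 of 12353) there were 229 of 8849 with comparison cells nearest in depth and 244 of 6020 with comparison sums thinned. There were 96 of 12236 with members of sum 2 to 5, 129 of 12212 with members that held Six2 and 10 of 12135 without cells with any other ureteric marker. Between Lhx1-positive and Lhx1-zero cells (62 of 4195) there were 96 of 13576 without the filter and 21 of 4218 without the highest-sum cell of each library. With members of sum 2 to 5 there were 0 of 3101 (109 at an unadjusted p under 0.05). Against Wnt4-positive cells (120 of 8171) there were 198 of 7740 with 2 of the 4 genes detected and 272 of 7879 at a sum of at least 3. There were 210 of 15709 without the filter, 34 of 7757 with members of sum 2 to 5 and 6 of 7454 without cells with any ureteric marker. The share of program cells was 0.268%, 0.371% and 0.285% after thinning and 0.661%, 0.471% and 0.615% at a sum of at least 3. The settings for members of sum 2 to 5, without the highest-sum cells and without ureteric markers other than Hoxb7 were chosen after seeing the data.

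Without cells with any ureteric marker, Hoxb7 included, 18 program cells in 2 libraries were left, and 28 values changed sign with adjusted p of 0.990 or more. Against Six2-positive cells the log2 differences were Egr4 0.29, Wnt4 -0.28, Notch1 -8.58 and Cldn7 -6.82 (the latter pair at 0 UMIs in the cells left, so the value depends on the prior count), Lfng -0.79, Id2 -0.21, Fgf8 -0.45, Spint2 -0.30, Ezr -0.21, Lamc1 -0.13, Lamb1 -2.00, Frem1 0.053, Rrm2 -0.53, Gmnn -0.14, Hmgb2 -0.31, Ube2c -0.076, Cks2 -0.32, Smc4 -0.013, Birc5 -0.31 and Junb 0.20. Against Wnt4-positive cells they were Kdm2b -0.67, Ezr -0.023, Lamc1 -0.38, Smc4 -0.000593, Cks2 -0.35, Ube2c -0.00313, Fos 0.31 and Wfdc2 -0.23. With members of sum 2 to 5, Kdm2b was at -0.068. The cause of these changes was not tested. Of the other values of named genes, 1739 kept direction and side of the threshold and 612 kept direction and lost the call.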

Other observations

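Lhx1-positive program cells were not alike. The split below, by whether an Lhx1-positive cell also held Emx2 (13 cells) or not (27 cells), and the genes named for it were chosen after their values were seen, and no test was made. The cells of highest sum (20 to 109) all held Emx2, so the split cannot be told apart from the gradient with the sum. The deepest program cells (61041 and 73428 UMIs, library 1) held Emx2 too. Levels with Emx2 in library 1 rest largely on them. Dkk1, a secreted Wnt inhibitor, was found in 5 of the 13 and in 0 of the 27, which allows a share of up to 11.1%. Its levels in libraries 1, 2 and 3 were 49.1, 309.8 and 35.0 CPM in the former, and the level in library 2 came from 1 cell. The POU factor gene Pou3f3 was found in 4 and 0 cells and the bHLH-PAS factor gene Sim1 in 3 and 0. Each was thus seen with Emx2 in every library. Irx1 had 20 UMIs, all in 1 cell with Emx2.

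The epithelial gene Epcam was at 98.3, 46.5 and 140 CPM with Emx2 (7 of 13 cells) and at 7.21, 11.1 and 4.32 CPM without it (4 of 27). Lef1 was found in 10 of 13 and 4 of 27 cells, Lfng in 8 and 3, and Jag1 in 8 and 8. Wt1, a factor kept by podocyte precursors, went the other way, at 49.1, 232 and 186 CPM with Emx2 (9 of 13 cells) and 400, 278 and 380 CPM without it (27 of 27). Tmem100, a transmembrane protein gene, was found in 0 of 13 cells, which allows a share of up to 23.1%, and in 12 of 27, at 54.1, 77.9 and 108 CPM. Pax8 was alike, at a mean of 262 CPM with Emx2 and 240 CPM without it. Cited1 was low in both, at means of 43.7 and 48.7 CPM, whereas program cells without Lhx1 were at 154 CPM.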
